A study of Solanum lycopersicum and Arabidopsis thaliana and Cannabis sativa with 28 samples.

Results

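The H3K9ac domains described here are those listed for 2-week-old tomato seedlings that lie over a single H3K4me3 domain, that were chosen by a ratio of JA (jasmonic acid) to ctrl reads under 1.6 and by a position in a region rich in H3K4me3. A domain is a stretch of neighboring windows in which the epic2 program found more ChIP reads than expected. Of 17455 listed H3K9ac domains, 9747 shared at least 1 base with exactly 1 of 18758 listed H3K4me3 domains, 5300 overlapped none and 2408 overlapped several. Among the 9747 domains, 95 were left out because they held at least 1.6 times as many reads after 2 h of JA as in ctrl. A further 1152 were left out because fewer than 10 H3K4me3 midpoints lay in their 1 Mb bin. The remaining 8500 domains (48.7% of those listed) are referred to as single-H3K4me3 domains. The ratio of JA to ctrl reads was therefore part of their choice, and all values of this ratio are given as description without a test.

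PHILO ChIP-seq, a low-input ChIP-seq protocol for many plant samples, was carried out on whole seedlings of the dwarf tomato variety Micro-Tom. H3K9ac was profiled in untreated seedlings (ctrl) and in seedlings exposed to gaseous JA in a transparent container for 2 h (2 h JA), and H3K4me3 and an IgG control in untreated seedlings, with 3 libraries in each of the 4 groups. The names ctrl and 2 h JA come from the sample titles, while the treatment field of the labels reads none for all of these libraries, and the study's own sequencing overview lists replicate 3 of ctrl as treated and replicate 3 of 2 h JA as untreated. The methods describe MNase fragmentation for tomato, and the labels sonication. The labels do not state whether the 3 libraries of a group came from separate plants, while the study calls those of H3K9ac biological replicates. The authors merged the 3 libraries of each group before they called domains, so that every value is a single pooled read count per group. No spread between replicates can be given, and no difference between groups or between sets of domains was tested.

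H3K9ac neutralizes a positive charge on the histone tail and is placed by acetyltransferases at promoters and the first part of transcribed genes. H3K4me3 is a methylation mark at the start of active genes, and in plants both marks are commonly found together just downstream of transcription start sites. In the JA pathway, JAZ repressors keep MYC2 and related transcription factors in contact with deacetylase complexes until JA leads to the breakdown of JAZ. In Arabidopsis, MYC2 then works with the Mediator subunit MED25 and the acetyltransferase HAC1, and H3K9 acetylation rises at JA-responsive genes. The H3K9ac table lists only domains that epic2 called higher in 2 h JA than in ctrl after its own library scaling. Domains with lower H3K9ac after JA are not analysed here. Gene names are not given, since no gene annotation of the assembly used for the tables (SLM_r2.0) was at hand.

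Single-H3K4me3 domains were mostly a few kilobases long. The median size was 3799 bp, the quartiles were 2399 and 6199 bp, and the longest domain measured 37199 bp. The merged ctrl libraries placed a median of 414 reads in a domain (quartiles 304 and 595), and the merged 2 h JA libraries a median of 435 reads (quartiles 324 and 611). Per kilobase of domain, the median was 109 reads in ctrl and 115 reads after JA. Together these domains spanned 40.5 Mb, which was 41.3% of the length of all listed H3K9ac domains, and held 45.6% of the 8987855 ctrl reads and 45.4% of the 9443107 JA reads in them.

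The 3 domains that lay nearest to the medians of size, ctrl reads and ratio give an idea of a typical case. On chromosome 6, the domain from 38613600 to 38617199 held 412 reads in ctrl and 429 reads after JA. Its H3K4me3 domain reached from 38615400 to the same right end, with 330 H3K4me3 and 33 IgG reads, and H3K9ac reached 1800 bp beyond H3K4me3 on the left side only. On chromosome 1, the domain from 76180200 to 76183999 held 406 reads in ctrl and 425 after JA, and its H3K4me3 domain left 1400 bp free on the left and 800 bp on the right. On chromosome 3, the domain from 59782600 to 59786399 held 427 and 446 reads. Its H3K4me3 domain stood out less from the control, with 61 H3K4me3 and 40 IgG reads. Their nearly equal H3K9ac reads in ctrl and after JA follow from this choice.

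Domains over 1 H3K4me3 domain differed from domains over none mainly in read density, and from domains over several mainly in size. For this comparison, the same conditions on ratio and bin were set for both other kinds, which left 4005 domains without H3K4me3 and 2337 domains over several H3K4me3 domains. In ctrl, the domains without H3K4me3 had a median of 45.9 H3K9ac reads per kb, compared with 109 in the single-H3K4me3 domains and 104 in those over several. The lower quartile of the single-H3K4me3 domains, 83.3 reads per kb, lay above the 90th percentile of the domains without H3K4me3, 68.0 reads per kb. In size, the median was 3199 bp without H3K4me3, 3799 bp with 1 and 12399 bp with several H3K4me3 domains. Since the number of H3K4me3 domains under a domain tends to grow with its length, the size order follows in part from the way the kinds were formed.

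**Figure D1:**
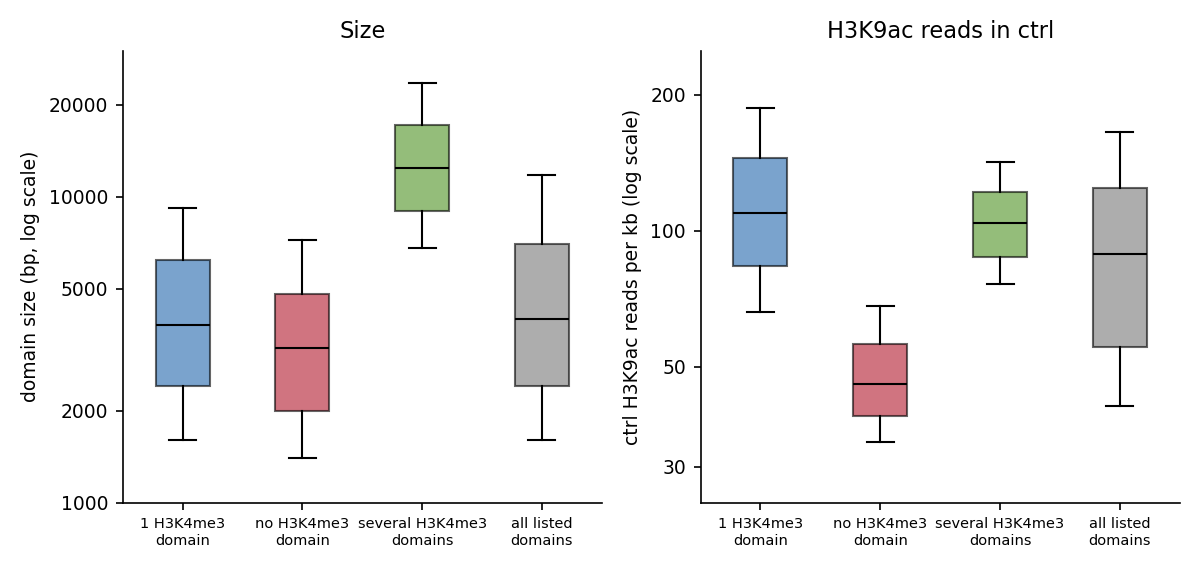
Size in bp (left) and ctrl H3K9ac reads per kb (right), both on log scales, of the 8500 domains over 1 H3K4me3 domain, the 4005 over none, the 2337 over several and all 17455 listed domains. Boxes are quartiles with the median as a line and whiskers reach the 10th and 90th percentiles, and the box of domains without H3K4me3 lies below the others in read density (median 45.9 reads per kb against 109 for domains over 1).

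The listed H3K4me3 domain lay wholly inside the listed H3K9ac domain in most cases, and the H3K9ac domain commonly ran on past it. The ends of H3K9ac domains were called in 2 h JA against ctrl, and those of H3K4me3 domains in untreated seedlings against IgG. Both sets of ends therefore rest on different treatments and controls. In 6842 of the 8500 domains (80.5%), the H3K9ac domain contained the complete H3K4me3 domain. H3K9ac reached past H3K4me3 on both sides in 4152 domains (48.8%) and on 1 side in 3545 domains (41.7%). In 557 domains (6.55%) H3K9ac did not reach past H3K4me3 on either side and was shorter, and in 246 (2.89%) both started and ended at the same 200 bp windows. The H3K4me3 domain covered a median of 47.4% of the H3K9ac domain, and the 10th and 90th percentiles of this share were 18.8% and 92.9%.

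The stretches of H3K9ac outside H3K4me3 were sorted into a longer and a shorter one per domain, which by itself makes them unequal. A stretch counts as negative where H3K4me3 ran past H3K9ac. The longer stretch measured a median of 1600 bp, with quartiles of 600 and 3200 bp, whereas the median of the shorter stretch was 0 bp. H3K9ac extended at least 1 kb on 1 side only in 3969 domains (46.7%) and at least 1 kb on both sides in 1691 domains (19.9%). The tables give no strand. The longer stretch pointed to higher coordinates in 4029 domains and to lower coordinates in 3971, and in 500 both stretches were equal. The longest stretch belonged to a domain on chromosome 4 from 59933200 to 59970399, where H3K9ac began 24600 bp to the left of the H3K4me3 domain and ended 9000 bp to its right. On chromosome 5, from 64697000 to 64721799, H3K9ac ran for 23600 bp on the left of an H3K4me3 domain that ended at the same position as H3K9ac. A domain on chromosome 8 from 1152800 to 1178199 followed, with 20000 bp on the left and 4000 bp on the right.

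**Figure D2:**
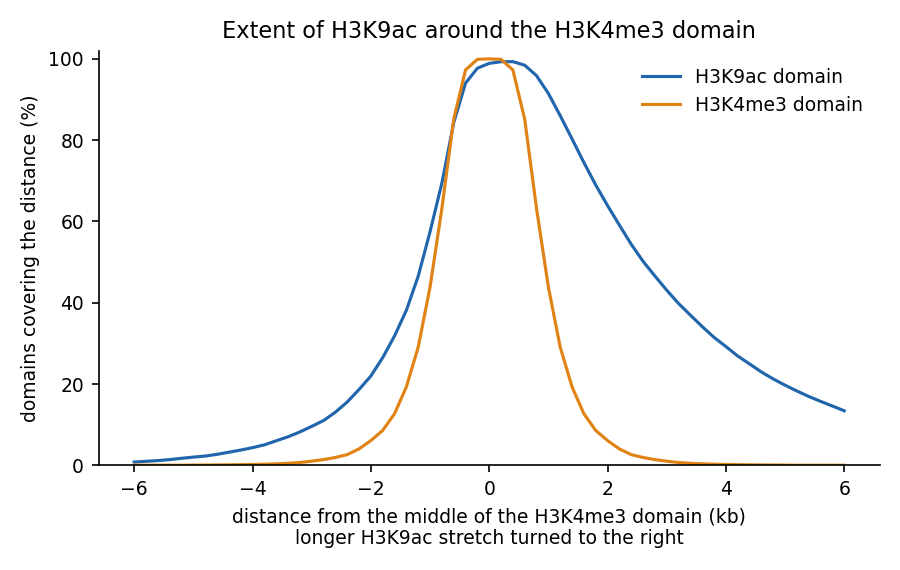
Percentage of the 8500 domains whose H3K9ac domain (blue) or H3K4me3 domain (orange) covers a given distance in kb from the middle of the H3K4me3 domain. H3K9ac domains were called in 2 h JA against ctrl, and H3K4me3 domains in untreated seedlings against IgG. Each domain was turned so that its longer H3K9ac stretch points to the right, which by itself makes the blue line unequal, and the orange line falls to 4.04% at 2.2 kb, where 59.1% of the H3K9ac domains still continue.

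H3K9ac reads were denser where H3K4me3 covered more of the domain. Among the 803 domains covered completely, the median was 186 ctrl reads per kb (quartiles 149 and 224). The median was 152 reads per kb in domains covered by 80% to under 100%, 135 at 60% to under 80%, 113 at 40% to under 60%, 89.2 at 20% to under 40% and 70.2 in the 950 domains covered by less than 20%. The interquartile ranges of the first and the last of these classes did not overlap. Domains also became longer in this order, from a median of 1599 bp at complete coverage to 8599 bp below 20%. The 2 h JA libraries showed the same order, with 163 reads per kb at 80% to under 100% and 73.1 below 20%.

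Density and size followed the position of both marks in the same way. Domains that reached past H3K4me3 on both sides had a median size of 5399 bp and 94.0 ctrl reads per kb, those longer on 1 side 2999 bp and 121 reads per kb. Domains lying within H3K4me3 measured 1599 bp with 187 reads per kb, and domains with the same ends 1399 bp with 184 reads per kb. H3K9ac was therefore least dense in the kind of domain that extended furthest. A longer stretch outside H3K4me3 also went with fewer reads per kb, from a median of 140 with a stretch of up to 1 kb to 110 from over 1 to 2 kb, 91.0 from over 2 to 4 kb and 76.9 in the 1504 domains with over 4 kb. The median log2 of JA over ctrl reads in the same order was 0.08, 0.07, 0.05 and 0.02, while the median number of ctrl reads rose from 327 to 735. Larger H3K4me3 domains lay under larger H3K9ac domains, with a Spearman's rho of 0.37 between both sizes over the 8500 domains. In 80.5% of them H3K9ac contained the H3K4me3 domain and could not be smaller, which sets part of this order in advance. Where the H3K4me3 domain measured under 1 kb, the H3K9ac domain had a median of 2599 bp, and where it measured 3 kb and more, 6599 bp. The medians of H3K9ac density in these 2 classes, 96.4 and 109 ctrl reads per kb, differed less than those between classes of coverage.

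To describe this in terms of the parts of a domain, the reads of all 8500 domains were fitted by least squares as a sum of bases inside and bases outside the H3K4me3 domain. This fit gave 160 ctrl reads per kb inside and 57.7 outside, a 2.78-fold higher density inside. For 2 h JA the values were 168 and 59.2 reads per kb. The squared correlation of fitted and counted ctrl reads over domains was 0.761. The density fitted outside H3K4me3, an average, was closer to the median of domains without any H3K4me3 (45.9 reads per kb) than to the density inside. Both come from domains that epic2 called in the same libraries, and the part of this in their likeness was not tested. The log2 ratio of JA to ctrl in this fit was 0.07 inside and 0.04 outside. Read counts per window were not analysed here, so that these are averages over domains and assume 1 density for each part.

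The H3K4me3 domains under single-H3K4me3 domains were of ordinary size and somewhat more enriched than all listed ones. They had a median size of 1799 bp, the same as over all 18758 H3K4me3 domains. Their median was 302 H3K4me3 and 34 IgG reads, or 162 and 19.0 reads per kb, against 144 H3K4me3 and 19.2 IgG reads per kb over all. A log2 fold change over IgG of at least 1 in the deposited table was reached under 8418 of the 8500 domains and missed under 82 (0.965%), while 96.8% of all listed H3K4me3 domains reached it. The 8500 domains had 8484 different H3K4me3 domains as partners, since 32 of them shared a partner with another of these domains. In 12 domains the overlap was a single window of 200 bp. At most 3 IgG reads, the floor used here, were counted in the partners of 13 domains.

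H3K9ac density rose with the H3K4me3 density of the partner, a value from other libraries of which only the position was used for the choice of domains. The domains were ranked by this value and divided into 4 classes of 2125 domains. In the lowest class (median 71.2 H3K4me3 reads per kb), the median was 80.4 ctrl H3K9ac reads per kb. It was 108, 121 and 132 reads per kb in the following classes, where the partners had medians of 138, 186 and 252 H3K4me3 reads per kb. Across the 8500 domains, Spearman's rho between the densities of both marks was 0.46. For the IgG reads per kb counted over the same partners, rho with H3K9ac density was 0.04. Within classes of equal coverage by H3K4me3, rho of the 2 marks was 0.51 below 20%, 0.63 from 20% to under 40% and from 40% to under 60%, 0.67 at 60% to under 80%, 0.66 at 80% to under 100% and 0.58 at complete coverage. Domains of pooled libraries are not independent replicates, and these coefficients describe the domains only.

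**Figure D3:**
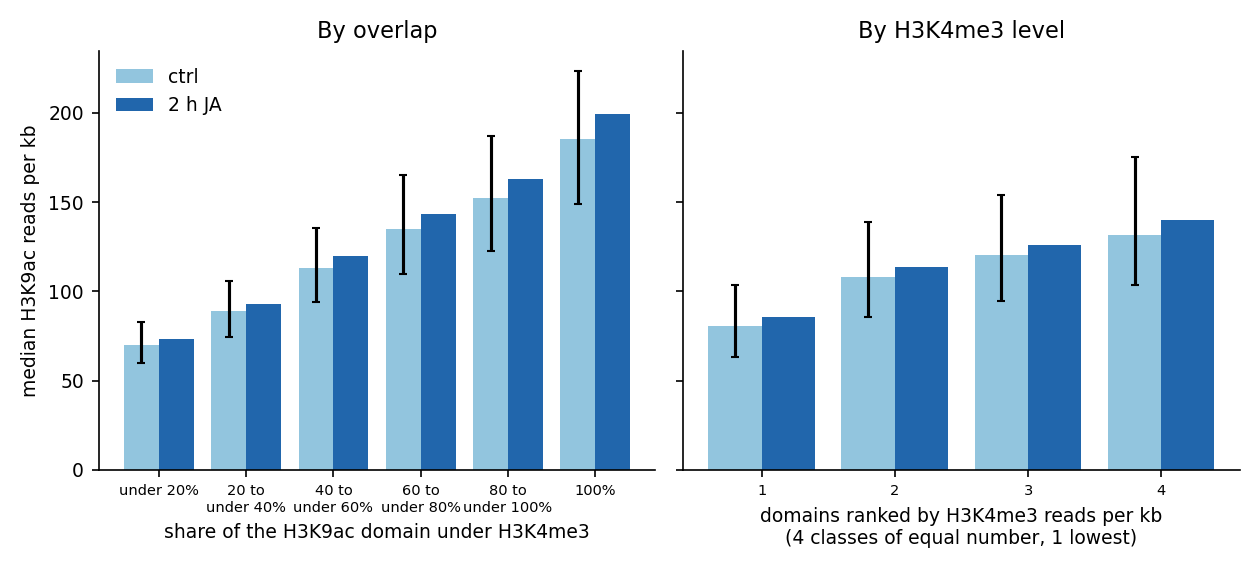
Median H3K9ac reads per kb in ctrl (light) and after 2 h JA (dark), by the share of the H3K9ac domain under H3K4me3 (left) and by 4 equal classes of H3K4me3 reads per kb (right). Lines on the ctrl bars span the quartiles, and the medians of ctrl rise from 70.2 to 186 on the left and from 80.4 to 132 on the right.

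The domains with the highest H3K9ac density were short and almost fully covered by H3K4me3. On chromosome 8, from 8533200 to 8534199, 406 ctrl and 382 JA reads were counted over 1 kb that lay completely within an H3K4me3 domain of 2199 bp. The domain on chromosome 5 from 57657400 to 57658199 had the same ends as its H3K4me3 domain and held 404 ctrl and 436 JA reads per kb. On chromosome 6, from 38465600 to 38467399, H3K4me3 covered 88.9% of a domain with 403 ctrl and 438 JA reads per kb. JA reads were lower than ctrl reads in the first of these domains and higher in the other ones, and all 3 counting intervals of the ratio included equal reads.

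The 3 longest domains differed in density. The longest was the one on chromosome 4 described for its long stretch. Its 118 ctrl reads per kb lay above the median of 109 over all single-H3K4me3 domains. It held 4402 reads in ctrl and 4009 after JA, a log2 ratio of -0.13 (95% Clopper-Pearson interval of the counts -0.20 to -0.07). H3K4me3 covered 9.68% of it, with 1033 H3K4me3 and 53 IgG reads. The next longest, on chromosome 2 from 53747600 to 53775399, held 2066 reads in ctrl and 2063 after JA, or 74.3 and 74.2 per kb, with the H3K4me3 domain near its middle. On chromosome 5, from 3800200 to 3827599, 1467 reads in ctrl and 1404 after JA gave 53.5 and 51.2 reads per kb. None of these 3 domains held more reads after JA without scaling. Domains with many reads can be listed at lower ratios, so that this follows in part from the listing. All intervals given here reflect counting error alone, as the libraries of each group were merged. The reads also carry no molecular identifiers, which these intervals do not take into account.

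Partners with the most H3K4me3 reads per kb were not of 1 kind. The H3K4me3 domain with the highest density, 475 reads per kb, lay in a domain on chromosome 10 from 57106800 to 57114999. It reached only from 57114000 to 57114399 and, without scaling, held more IgG reads (210) than H3K4me3 reads (190). With the scaling of the deposited table, its log2 fold change over IgG was 0.60. In contrast, the next H3K4me3 domains, under the domain on chromosome 6 from 44861400 to 44870199 and the one on chromosome 7 from 3921600 to 3923799, held 752 and 584 H3K4me3 reads against 37 and 30 IgG reads. Over 100 IgG reads per kb were found in the partners of 14 domains. The domains with the next highest IgG densities, chosen after their values were seen, were on chromosome 3 from 4074000 to 4089399 and on chromosome 8 from 5077800 to 5082599. In both, the partner held more IgG than H3K4me3 reads without scaling (145 against 125, and 132 against 120). Their deposited log2 fold changes over IgG, which are scaled, were 0.53 and 0.60. H3K9ac reads were 776 in ctrl and 778 after JA in the former and 297 and 294 in the latter. The 82 domains whose partner had a log2 fold change under 1 had a median of 68.4 ctrl H3K9ac reads per kb, less than the 109 over all single-H3K4me3 domains.

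Between ctrl and 2 h JA, the unscaled read counts of single-H3K4me3 domains were nearly equal, within the bounds set by the ratio limit and the listing. Without scaling of the libraries, the log2 of JA over ctrl reads lay between -0.16 and 0.67, with a median of 0.06 (1.04-fold) and quartiles of -0.01 and 0.14. Over all 17455 listed domains the median was 0.08. More reads after JA than in ctrl were counted in 6089 domains (71.6%), while 74.6% of all listed domains did so, and fewer reads in 2312 (27.2%), compared with 24.2%. This split holds without scaling only. With the constant of the deposited fold change, 0 of the 8500 domains were lower after JA, and with totals of uniquely aligned reads 245 (2.88%) were lower, compared with 2.89% of all listed domains. A log2 ratio of at least 0.5 was found in 73 domains (0.859%) and in 3.76% of all listed domains, where those above the ratio limit are included. Since the rule set a limit on this ratio, nothing is read from these shares.

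The spread of these ratios, restricted in advance by the ratio limit and the listing, was of a similar size as their counting error. The median counting error of a single log2 ratio was 0.10, and the SD of the log2 ratio over the 8500 domains was 0.12. The counting interval of the ratio lay above equal reads in 1102 domains (13.0%, against 14.8% of all listed domains) and below equal reads in 48 domains (0.565%, against 1.28%). In the remaining domains this interval included equal reads. All listed domains had been called higher after JA by epic2 with its own scaling, and the rule limited this ratio. These counts therefore describe unscaled reads and are no test of a change. The level of these ratios depends on the scaling. The fold change column of the deposited table adds a constant of 0.23 to every log2 ratio, which raises the median to 0.30. Scaling to totals of uniquely aligned reads instead shifts each log2 ratio by 0.10, to a median of 0.16. These totals were summed by library name. With replicate 3 of both groups assigned by the treatment column of the sequencing overview, the shift is -0.05 and the median 0.01. Each of these shifts is the same for every domain, so that the order of domains and the differences between kinds stay as they are. The last one changes the library totals only and leaves the pooled reads per domain as deposited. If replicate 3 was swapped in the merged libraries, its reads would move between both counts in each domain. The ratios, their order and the choice of domains could then differ, which the pooled counts cannot show.

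**Figure D4:**
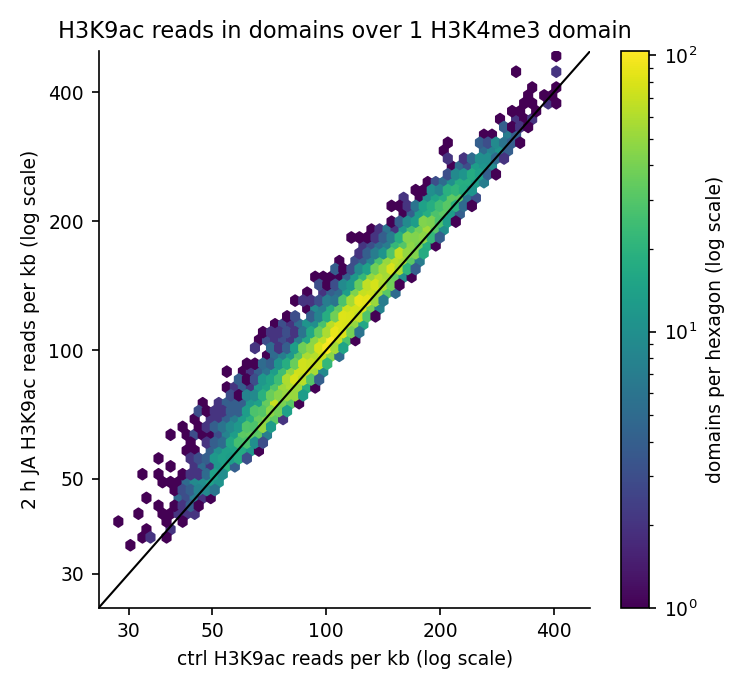
H3K9ac reads per kb after 2 h JA (vertical) and in ctrl (horizontal), both on log scales, in the 8500 single-H3K4me3 domains, with the color showing the number of domains per hexagon on a log scale. The line marks equal reads without scaling, and the ratio limit keeps domains from lying far above it. The domains lie close to the line over ctrl densities from 27.5 to 406 reads per kb, with medians of 109 and 115.

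The ratio is given by number of ctrl reads, which are also its denominator, so that an order from high to low is partly fixed in advance. In the 66 single-H3K4me3 domains with under 100 ctrl reads the median log2 ratio was 0.27, and it was 0.15 from 100 to under 200 reads, 0.09 from 200 to under 400, 0.04 from 400 to under 800 and 0.01 in the 941 domains with 800 and more reads. A domain with few reads must also have a larger ratio to be listed at an FDR of at most 0.05, and the part of both in these medians was not tested. They apply to all kinds of domains, and the order of the kinds is given without and with classes of ctrl reads. Without regard to it, the domains lacking H3K4me3 had the higher median (0.12) and those over several H3K4me3 domains the lower one (0.02). From 200 to under 400 ctrl reads, in contrast, the median was 0.09 in single-H3K4me3 domains and 0.05 without H3K4me3, and from 400 to under 800 reads it was 0.04 and 0.01, with 0.05 in domains over several. Within each class of ctrl reads, the median of single-H3K4me3 domains was above that of domains without H3K4me3, but the quartile ranges overlapped in every class. At similar ctrl reads the domains without H3K4me3 were longer, with a median of 5199 bp against 2599 bp from 200 to under 400 reads.

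**Figure D5:**
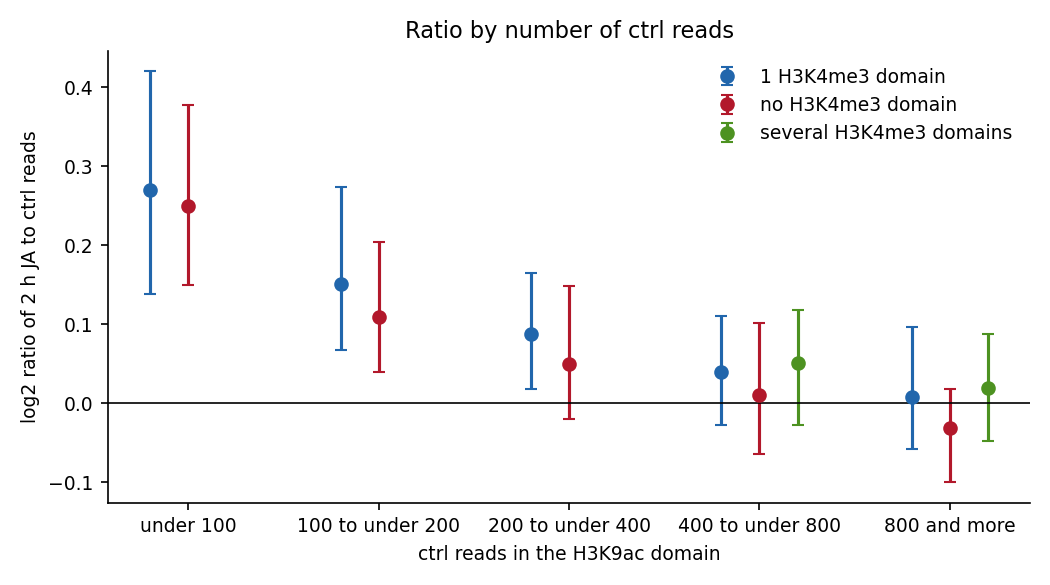
Median of log2 JA over ctrl reads (points) with quartiles (lines) by the number of ctrl reads in the domain, for domains over 1, no and several H3K4me3 domains. Classes with fewer than 20 domains are not drawn, and the medians of domains over 1 fall from 0.27 under 100 reads to 0.01 at 800 and more.

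Within the bounds set by the ratio limit and by the listing, the ratio varied little with H3K4me3. These bounds restrict its variation in advance. Spearman's rho between the log2 ratio and the H3K4me3 density of the partner was 0.02 across the 8500 domains, and the medians of the 4 classes of H3K4me3 density ranged from 0.06 to 0.07. With the share covered by H3K4me3 the median log2 ratio went from 0.03 below 20% to 0.09 at complete coverage. Fewer ctrl reads went along with this, from a median of 615 to 285. From 200 to under 400 ctrl reads, the medians were 0.08 to 0.10 in the 5 classes from 20% coverage upward and 0.06 in the 151 domains below 20%. From 400 to under 800 reads they lay between 0.03 and 0.05 in all classes, with no steady order.

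Just under the ratio limit, the highest ratio belonged to a domain on chromosome 9 from 60977200 to 60984399, with 464 reads in ctrl and 738 after JA (log2 ratio 0.67, interval 0.50 to 0.84). The next were both on chromosome 10. From 55265200 to 55266999, 211 ctrl and 335 JA reads were counted, and the domain from 62656000 to 62660799 reached the same ratio of 1.59 with 316 JA reads. The 3 domains just above the limit, which were not included, lay on chromosome 10 from 58456800 to 58461999 (437 and 705 reads), on chromosome 12 from 62819600 to 62823199 (223 and 360 reads) and on chromosome 10 from 62407400 to 62411799 (218 and 353 reads). The intervals of the domains on both sides of the limit overlapped, and the limit does not mark a gap in the data. At the limit of the bins, 194 domains lay in bins with exactly 10 H3K4me3 midpoints and 171 otherwise eligible ones in bins with 9. Their medians were 114 and 115 ctrl reads per kb.

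The lowest ratios were found in domains with many reads, which follows in part from the listing, as a domain with few reads needs a larger ratio. JA reads exceeded ctrl reads in 100% of the 66 domains with under 100 ctrl reads, and in 100% of the 1753 listed domains of this class. With 800 and more ctrl reads they did so in 52.8%, against 55.4% of the 3039 listed domains of this class. On chromosome 1, from 78731600 to 78739199, 2137 ctrl reads and 1914 JA reads gave a log2 ratio of -0.16 (interval -0.25 to -0.07). Its H3K4me3 domain started at the same position and covered 63.2% of it with 1088 H3K4me3 and 74 IgG reads. On chromosome 6, 1345 ctrl and 1208 JA reads were counted from 38093200 to 38107799, and 1161 and 1046 from 44148800 to 44156799. The counting intervals of all 3 lay below equal reads, but with the constant of 0.23 in the deposited table their log2 fold changes are above 0.

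Single-H3K4me3 domains were found on all 12 chromosomes in similar proportions. They made up between 44.5% of the listed domains on chromosome 12 and 53.9% on chromosome 11, with 362 domains on chromosome 2 and 1196 on chromosome 1 as the lowest and highest numbers. Median ctrl densities per chromosome ranged from 105 to 114 reads per kb, and median log2 ratios from 0.05 on chromosome 6 to 0.08 on chromosome 12. The domains were spread over 388 bins of 1 Mb. In the bins with 10 to under 25 H3K4me3 domains their median size was 2999 bp with 119 ctrl reads per kb, and in those with 100 and more it was 4199 bp with 108 reads per kb. The 1152 domains left out for their sparse bins had a median of 125 ctrl reads per kb. The nearest other listed H3K9ac domain was a median of 3000 bp away (quartiles 1000 and 8200 bp), and the nearest other H3K4me3 domain 5600 bp (quartiles 2800 and 11400 bp). Less than 2 kb separated 39.3% of the domains from another H3K9ac domain and 15.5% from another H3K4me3 domain.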

How the data were processed

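PHILO ChIP-seq reads of tomato were aligned by the authors to the Micro-Tom assembly SLM_r2.0.pmol (Bowtie2, version 2.4.1), the 3 replicates of each group were merged, and domains were called with epic2 (version 0.0.52). The merged IgG library was the control for H3K4me3, and merged ctrl the control for 2 h JA H3K9ac. The deposited read counts are whole numbers and were not normalized. The deposited FDR (an adjusted p-value) and log2 fold change come from epic2, and the deposited p-value and score columns were not used. The FDR served for a stricter alternative only, and the log2 fold change for the H3K4me3 limit of 1 and its scaling constant. Neither is reported as a result, except the log2 fold changes of the partners with the most IgG reads per kb. Hemp domains were not used.

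Coordinates are given as in the tables. Size is end minus start, and densities, coverage and overlap count both end positions. Ratios are JA over ctrl reads without scaling. Depth is limited by the pooled counts per domain, a median of 414 ctrl reads. Intervals are 95% Clopper-Pearson intervals. The domains and comparisons were chosen with earlier results of these data known. Domains were named by a fixed rule: the 3 nearest to the medians, the 3 longest, the 3 with the highest H3K9ac density, H3K4me3 density, outside stretch, and highest and lowest ratio (at least 100 ctrl reads), and the 3 on either side of the ratio limit. Alternatives were set for overlap, H3K4me3 limit, bins, FDR, ctrl reads and scaling. The matching functions were tested on simulated domains. The gene table at hand belongs to SLM_r2.1, and the genome at hand to Arabidopsis, so that neither gene names nor sequences are given. Values were computed in Python 3.11.15 with SciPy 1.17.1, NumPy 2.4.6 and pandas 2.3.3, and plotted with matplotlib 3.10.9.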

Additional observations from a re-analysis of the deposited data

How the results depend on the processing

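The number of single-H3K4me3 domains was 8500 with an overlap of at least 200 bases, 8339 with H3K4me3 domains of a log2 fold change of at least 1 only, 9307 and 7312 with bins of at least 5 and 20 H3K4me3 domains, and 5955 at an FDR of at most 0.001. The median log2 ratio of JA to ctrl reads, 0.06, was recomputed for scaling, FDR, ctrl reads, H3K4me3 limit and overlap, but not for bins. It stayed above 0 in each alternative, in part because only domains called higher after JA are listed. The median was 0.30 with the constant of the deposited fold change and 0.16 with uniquely aligned totals summed by library name. It was 0.010 with these totals after replicate 3 was assigned by the treatment column (chosen after the data were seen). The pooled reads per domain were left unchanged. At an FDR of at most 0.001 the median was 0.10, where domains with small ratios are left out by construction. At this FDR the median size was 3999 bp and the median H3K4me3 density of partners 167 reads per kb. The medians of ctrl density and coverage at this FDR, and all medians with at least 100 ctrl reads, the H3K4me3 limit or the longer overlap, stayed within the 95% binomial interval of the main median. This interval treats domains as independent, which those of pooled libraries are not. The alternatives also draw on largely the same domains, so that the interval served as a yardstick and is no test. Weighting the fit of densities by 1/ctrl reads, chosen after the data were seen, gave 155 ctrl reads per kb inside H3K4me3 and 54.3 outside, and 165 and 55.9 after JA. No paired analysis was possible because the replicates were merged before deposit, and for the same reason no replicate could be left out. Depth limits statements on single domains, as the counting interval of a log2 ratio reached a median of 0.20 to either side.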
